A study of Mus musculus with 32 samples.

Results

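The 10 genes of the NRF2 antioxidant response listed here were followed in mouse epidermis 24 h after UV. These are Nfe2l2, Keap1, Slc7a11, Gclc, Gclm, Txnrd1, Srxn1, Nqo1, Hmox1 and Gsta4, taken by symbol, and all 10 of 10 were found among the 55401 gene identifiers of the count tables and passed the filter on low counts. UV moved these genes in opposite directions. In wild-type mice Gsta4, Nqo1, Srxn1, Slc7a11, Nfe2l2 and Gclm rose, Txnrd1, Keap1 and Gclc fell, and Hmox1 did not pass the test, so that 9 of 10 were called where 71% of the 15546 genes tested were. The same 6 genes rose and the same 3 fell in mice labelled KO, where 70.8% of all genes were called. For none of the 10 did the UV response differ between the genotypes at an adjusted p under 0.05 in edgeR's quasi-likelihood test.

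RNA was sequenced from the dorsal epidermis of 32 mice of the mixed SKH-1/SV129/BL6/J background, aged 10 to 14 weeks. They were wild-type (WT) mice and mice deficient for PPARβ (SKH-1/SV129/BL6/J PPARD-/-, labelled KO). Mice of each genotype were either given UV at 120 mJ/cm2 on the back and killed 24 h later, or sham handled without UV. Each combination of genotype, treatment and sex held 4 mice, which gave 8 groups. No Cre driver or transgene is named for the KO, and the loss of PPARβ is not limited to one cell type by any label. Epidermis was peeled from dermis after soaking in ammonium thiocyanate, so a library is a mixture of keratinocytes and the other cells of the peel. Fewer cells of a type and less RNA per cell cannot be told apart in such libraries.

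Between 22919428 and 40653581 reads fell on genes in each library (median 27600228). Levels are given as cpm, reads on a gene for a fixed library total, scaled by TMM, a normalization that evens out differences in library composition. Ppard, which encodes PPARβ, was read at 87.3 to 105 cpm in WT controls and 70.3 to 88.9 cpm in KO controls (n = 8 mice each), a difference that was not called (-0.26 ± 0.07, log2, SE; edgeR adjusted p = 0.156). After UV it was read at 252 to 326 cpm in WT mice and 175 to 239 cpm in KO mice, a difference of -0.42 ± 0.07 (log2, SE; edgeR adjusted p = 0.00114). Counts over a whole gene do not show which exons the reads came from, so this level is a weak check of the genotype label. The library of KO female 54F after UV stood apart, with summed cpm of 1980 for 6 dermal fibroblast markers and 1560 for 10 macrophage and monocyte markers. Without it the same numbers of members were called for UV in KO mice (6 higher, 3 lower) and 0 were called between the genotypes, and the member that shifted most in either UV comparison of the genotypes was Hmox1, by 0.10 (log2) in the interaction.

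NRF2, encoded by Nfe2l2, is a transcription factor that is normally held by KEAP1, an adaptor of a ubiquitin ligase that marks it for destruction. Oxidants and electrophiles modify cysteines of KEAP1, NRF2 then builds up, pairs with a small MAF protein and binds antioxidant response elements near genes for glutathione synthesis, thiol reduction and detoxification. In skin the pathway is known for protecting keratinocytes from UV-made reactive oxygen species. It acts largely through the stability of the protein, which RNA counts do not measure.

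RefSeq promoter windows, 250 bases before to 50 after a start, were at hand on GRCm38.p6 for 7 of the 10 members, in 9 windows. They are shown for the 4 members with a match to the core of the antioxidant response element, TGACNNNGC on either strand, because 3 of these genes rose after UV and 1 fell. The core was held by 12.4% of all 32851 windows in the table, and by 4 of the 9 member windows. Capitals mark the core and, in Srxn1, also the AP-1 motif TGACTCA, which was read on the reverse strand at 2 places and was held by 5.20% of all windows; no core overlapped an AP-1 motif in these windows. The windows run 5′ to 3′ on the strand of the gene: chr2:75704614-75704913 (- strand) for Nfe2l2, chr2:152105274-152105573 (+ strand) for Srxn1, chr3:122245307-122245606 (+ strand) for Gclm and chr10:82858956-82859255 (+ strand) for Txnrd1, which had 3 windows of which only this one held a core.
Nfe2l2: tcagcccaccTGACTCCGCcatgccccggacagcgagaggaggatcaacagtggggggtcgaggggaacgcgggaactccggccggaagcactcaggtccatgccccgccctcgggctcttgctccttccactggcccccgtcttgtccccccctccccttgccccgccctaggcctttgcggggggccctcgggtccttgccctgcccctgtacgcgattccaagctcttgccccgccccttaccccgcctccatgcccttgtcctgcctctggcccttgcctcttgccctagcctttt
Srxn1: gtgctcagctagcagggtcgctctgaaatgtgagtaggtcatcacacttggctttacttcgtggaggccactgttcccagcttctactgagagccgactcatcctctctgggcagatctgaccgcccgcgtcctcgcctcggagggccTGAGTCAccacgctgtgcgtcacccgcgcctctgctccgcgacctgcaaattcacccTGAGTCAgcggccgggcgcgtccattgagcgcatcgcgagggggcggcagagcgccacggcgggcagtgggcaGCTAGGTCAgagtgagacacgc
Gclm: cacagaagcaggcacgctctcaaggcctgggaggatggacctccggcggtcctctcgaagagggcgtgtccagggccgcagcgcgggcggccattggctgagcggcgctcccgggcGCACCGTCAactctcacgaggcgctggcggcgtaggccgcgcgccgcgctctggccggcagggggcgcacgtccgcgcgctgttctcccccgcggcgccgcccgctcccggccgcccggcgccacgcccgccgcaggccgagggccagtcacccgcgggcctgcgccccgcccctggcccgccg
Txnrd1: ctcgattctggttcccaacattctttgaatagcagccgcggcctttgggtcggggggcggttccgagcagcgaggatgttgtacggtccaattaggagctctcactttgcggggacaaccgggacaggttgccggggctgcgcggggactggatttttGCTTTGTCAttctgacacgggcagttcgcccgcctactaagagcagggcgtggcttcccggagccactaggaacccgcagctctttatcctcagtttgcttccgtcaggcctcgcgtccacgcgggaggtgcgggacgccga

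The core began 240 bases before the start in Nfe2l2, 134 before it in Gclm and 92 before it in Txnrd1, and at base 29 after it in Srxn1. The AP-1 motifs of Srxn1 began 102 and 45 bases before the start. Keap1, Slc7a11 and Nqo1 had windows without either motif, and these letters may stand elsewhere near those genes. None of the 9 windows held the DR1 motif, the direct repeat bound by PPAR and its partner RXR, which 0.0396% of all windows held. A match of letters describes the window and does not show that a protein binds there. No window was at hand for Hmox1, Gclc and Gsta4.

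The regulators were taken first. Nfe2l2 (chr2:75675513-75704641, - strand, GENCODE M21 on GRCm38) was read at 71.6 cpm in the lowest, 80.1 in the median and 94.8 in the highest WT control, and at 122, 152 and 159 cpm after UV (n = 8 each). In KO mice the lowest, median and highest values were 57, 78.5 and 108 cpm in controls and 117, 127 and 165 cpm after UV. All UV mice therefore lay above all controls of their genotype. The rise was 0.85 ± 0.09 in WT and 0.75 ± 0.09 in KO (log2 fold change ± SE, edgeR adjusted p = 6.65e-09 and 5.76e-08), or 1.8-fold and 1.69-fold.

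Keap1 (chr9:21229730-21239361, - strand), the inhibitor, went the other way. WT controls ranged from 43 to 52.5 cpm (median 48.6) and WT UV mice from 21.7 to 30.0 cpm (median 24.8). KO controls ranged from 41.7 to 52.1 cpm (median 48.3) and KO UV mice from 23.7 to 40.8 cpm (median 29.8). No UV mouse reached the level of any control of its genotype, and the highest UV value, 40.8 cpm, belonged to KO female 66F. The log2 fold change was -0.92 ± 0.07 in WT and -0.71 ± 0.07 in KO (edgeR adjusted p = 1.13e-12 and 2.56e-10). The RNA for the factor thus rose and that for its inhibitor fell in both genotypes.

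**Figure D1:**
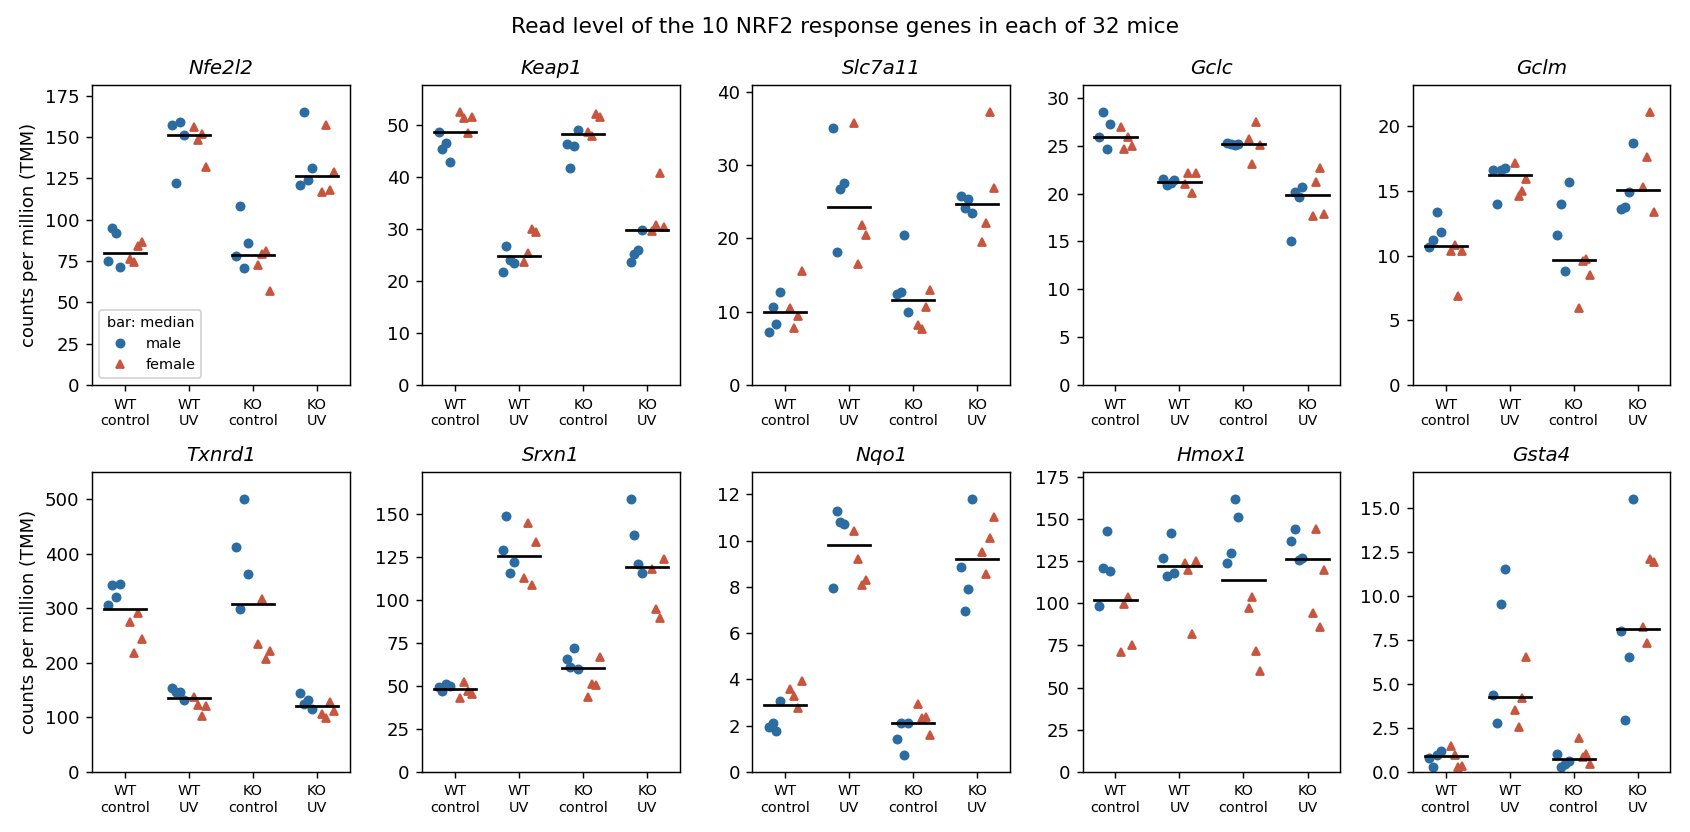
Cpm (y axis, linear from 0) of each of the 10 genes in each of the 32 mice, by genotype and treatment (x axis), with males as circles, females as triangles and a bar at the median of 8 mice. Srxn1 and Nqo1 separate UV from control mice completely, Txnrd1 and Keap1 do so in the other direction, and the Hmox1 groups overlap.

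Slc7a11, Gclc and Gclm supply glutathione, the main small thiol of the cell. Slc7a11 (chr3:49892526-50443614, - strand) encodes the cystine importer xCT, which feeds cysteine into glutathione. It was read at 7.18 to 15.6 cpm in WT controls (median 9.92) and 16.5 to 35.7 cpm in WT UV mice (median 24.2), without overlap. In KO mice the controls ranged from 7.68 to 20.4 cpm (median 11.6) and the UV mice from 19.5 to 37.2 cpm (median 24.7), where 1 control, male 52M, lay above the lowest UV mouse. The rise was 1.30 ± 0.19 in WT and 1.12 ± 0.19 in KO (log2, edgeR adjusted p = 6.44e-07 and 5.70e-06).

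Glutamate-cysteine ligase, the rate-limiting enzyme of glutathione synthesis, is made of a catalytic subunit, GCLC, and a modifier subunit, GCLM. Their RNAs moved in opposite directions. Gclc (chr9:77754535-77794485, + strand) ranged from 24.7 to 28.5 cpm in WT controls and 20.1 to 22.1 cpm in WT UV mice. In KO mice it ranged from 23.1 to 27.5 cpm in controls and 15 to 22.7 cpm after UV. The groups did not overlap in either genotype, although the fall was only -0.30 ± 0.06 in WT and -0.38 ± 0.06 in KO (log2, edgeR adjusted p = 9.51e-05 and 2.83e-06), or 1.23-fold and 1.31-fold.

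Gclm (chr3:122245557-122270732, + strand), whose window above holds a core, ranged from 6.85 to 13.4 cpm in WT controls (median 10.8) and 14.0 to 17.2 cpm in WT UV mice (median 16.3). KO controls ranged from 5.93 to 15.7 cpm (median 9.70) and KO UV mice from 13.4 to 21.1 cpm (median 15.1). WT groups were separate, whereas KO groups overlapped because control males 44M and 67M were read at 14.0 and 15.7 cpm. The rise was 0.58 ± 0.12 in WT and 0.64 ± 0.12 in KO (log2, edgeR adjusted p = 0.000148 and 4.01e-05). With males alone the KO value was 0.31 (adjusted p = 0.108).

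Of the thiol reductases, Txnrd1 fell and Srxn1 rose. Txnrd1 (chr10:82833951-82897712, + strand) encodes thioredoxin reductase 1, which keeps cytosolic thioredoxin reduced. WT controls ranged from 218 to 345 cpm (median 298) and WT UV mice from 103 to 153 cpm (median 134). KO controls ranged from 207 to 500 cpm (median 308) and KO UV mice from 98.6 to 145 cpm (median 120). The UV mice lay below all controls in both genotypes. The log2 fold change was -1.14 ± 0.10 in WT and -1.38 ± 0.10 in KO (edgeR adjusted p = 2.37e-11 and 6.43e-13), the largest fall among the 10 members in either genotype.

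Srxn1 (chr2:152105516-152111376, + strand) encodes sulfiredoxin, which repairs overoxidized peroxiredoxins. It was read at 42.8 to 52.5 cpm in WT controls (median 48.4) and 109 to 149 cpm in WT UV mice (median 126). In KO mice it was read at 43.6 to 72.1 cpm in controls (median 60.4) and 89.9 to 159 cpm after UV (median 120). The groups did not overlap in either genotype. The rise was 1.40 ± 0.09 in WT and 1.03 ± 0.09 in KO (log2, edgeR adjusted p = 1.11e-13 and 5.94e-11), or 2.64-fold and 2.04-fold.

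Nqo1, Hmox1 and Gsta4 detoxify quinones, heme and lipid aldehydes. Nqo1 (chr8:107388225-107403206, - strand) encodes a quinone reductase that is a standard readout of NRF2. It was low in controls, at 1.76 to 3.91 cpm in WT mice (median 2.90) and 0.747 to 2.95 cpm in KO mice (median 2.10), the latter resting on 17 to 82 reads a library. After UV it was read at 7.95 to 11.3 cpm in WT mice (median 9.78) and 6.96 to 11.8 cpm in KO mice (median 9.19). Every UV mouse lay above every control. The rise was 1.8 ± 0.17 in WT and 2.28 ± 0.17 in KO (log2, edgeR adjusted p = 2.70e-10 and 4.28e-12), or 3.49-fold and 4.85-fold.

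Hmox1 (chr8:75093621-75100589, + strand) encodes heme oxygenase 1, which opens the heme ring. It ranged from 71.2 to 143 cpm in WT controls (median 102) and 81.7 to 142 cpm after UV (median 122), and from 59.6 to 162 cpm in KO controls (median 114) and 85.7 to 144 cpm after UV (median 126). The ranges overlapped almost fully in both genotypes. The difference was 0.21 ± 0.12 in WT and 0.17 ± 0.12 in KO (log2, edgeR adjusted p = 0.122 and 0.232). Without WT UV female 59F, the lowest of her group at 81.7 cpm, the WT value was 0.32 and passed (adjusted p = 0.0223).

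Gsta4 (chr9:78182774-78209349, + strand) encodes a glutathione transferase that conjugates 4-hydroxynonenal, an aldehyde from oxidized lipids. It was low in controls, at 0.258 to 1.49 cpm in WT mice (median 0.870) and 0.283 to 1.94 cpm in KO mice (median 0.737), or 7 to 54 reads a library. After UV it was read at 2.54 to 11.5 cpm in WT mice (median 4.27) and 2.92 to 15.5 cpm in KO mice (median 8.12). The groups did not overlap, but the UV mice differed widely among themselves. The rise was 2.80 ± 0.42 in WT and 3.51 ± 0.43 in KO (log2, edgeR adjusted p = 9.68e-07 and 3.29e-08), the largest rise among the members and the one with the largest error.

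In all, 9 of 10 members passed at an adjusted p under 0.05 in each genotype, 6 higher and 3 lower. This has to be read against the background, since UV changed most genes: 71% of the 15546 genes tested passed in WT (34.5% higher, 36.5% lower) and 70.8% in KO (37.3% higher, 33.5% lower). The median absolute log2 fold change was 1.03 over the members and 0.64 over all genes in WT, and 0.89 and 0.64 in KO. UV and control mice did not overlap for 9 members in WT and for 7 in KO, against 43.4% and 35.1% of all genes. The share of members called is thus near that of all genes, and the members' sizes of change are given as a description.

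**Figure D2:**
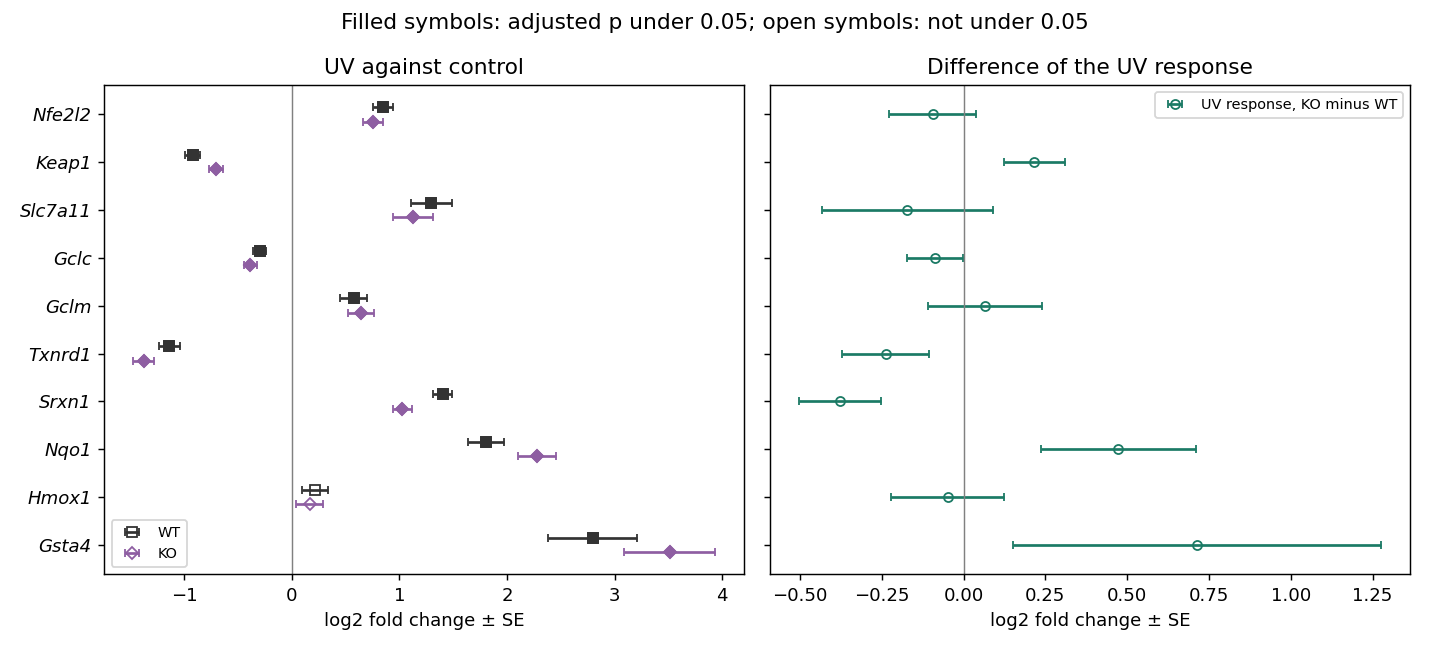
Log2 fold change ± SE (x axis) of each member (y axis) for UV against control in WT (squares) and KO (diamonds), and for the difference of the 2 responses (right, circles). Filled symbols have an adjusted p under 0.05; 9 of 10 are filled in each genotype, and all 10 differences are open.

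Within each genotype and sex, 4 UV mice were set against 4 controls. Called members numbered 9 in WT males, 9 in WT females, 8 in KO males and 10 in KO females, where 60.9%, 61.3%, 61.7% and 60.7% of all genes passed. The 8 members other than Gclm and Hmox1 passed in the same direction in all 4 strata. The share of all genes that did so is not given here, so this count is only a description. Gclm in KO males was 0.29 ± 0.17 (log2, edgeR adjusted p = 0.155) and 0.43 without male 67M (adjusted p = 0.0454), and in WT males it passed at 0.44 ± 0.17 (adjusted p = 0.0281) but not when any of 4 mice was left out (0.40 to 0.44, adjusted p = 0.0505 to 0.0703). Gclc in WT females was -0.27 ± 0.09 (adjusted p = 0.00904) and failed without female 59F or female 61F (-0.19 and -0.20). Hmox1 passed only in KO females, at 0.42 ± 0.17 (adjusted p = 0.0392). That call was lost under 19 of the alternatives, among them the fit without female 54F (0.27, adjusted p = 0.206). In WT females Hmox1 was 0.36 ± 0.17 (adjusted p = 0.0739) and passed when 54F, 59F or 71F was left out (0.40 to 0.54, adjusted p = 0.0122 to 0.0399).

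The genotype question, whether PPARβ deficiency changes the response, was tested as the difference of the UV responses, KO minus WT. No member passed (0 of 10, 2 at an unadjusted p under 0.05), where 0.765% of all genes did (119 genes, and 56 to 346 with 1 mouse left out). The members' differences lay between -0.38 and 0.71 (log2). The smallest p belonged to Srxn1, whose rise was smaller in KO by -0.38 ± 0.13 (edgeR adjusted p = 0.115). DESeq2, another count test, put it at -0.41 and called it (adjusted p = 0.0376), the only member called for this difference by any alternative. Keap1 fell less in KO, by 0.22 ± 0.09 (adjusted p = 0.198). Nqo1 and Gsta4 had larger rises in KO by 0.47 ± 0.24 and 0.71 ± 0.56 (adjusted p = 0.266 and 0.506).

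Direct comparisons of the genotypes gave no calls either. Without UV 0 of 10 members passed (2 at an unadjusted p under 0.05, and 0 by DESeq2 and by limma-trend), with 0.206% of all genes called. Srxn1 was higher in KO controls by 0.28 ± 0.09 and Nqo1 lower by -0.51 ± 0.17 (log2, edgeR adjusted p = 0.306 and 0.343). The ranges of both genes overlapped between the genotypes. After UV 0 of 10 members passed (2 unadjusted, 0 by DESeq2 and limma-trend), with 3.31% of all genes called. These were 514 genes, 209 without 54F, and 133 to 983 with any 1 mouse left out. All 6 dermal fibroblast markers and 1 of 10 macrophage and monocyte markers were also called higher in KO after UV. Their part in the genotype differences was not tested. Keap1 was 0.20 ± 0.07 higher and Gclc -0.14 ± 0.06 lower in KO (adjusted p = 0.0848 and 0.208). In the order of the 4 genotype and treatment groups, the 2 controls stood next to each other, as did the 2 UV groups, for all 10 members, and those neighbours overlapped in every case. The share of all genes with such an order is not given here, so it is not a trait particular to the members.

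Sex was compared because the study asks how male and female epidermis differ. The difference of the UV responses between the sexes, female minus male, gave 0 calls among the members (4 at an unadjusted p under 0.05, 0 by DESeq2 and limma-trend). Over all genes 0 of 15546 passed, or 0%, with 1091 at an unadjusted p under 0.05, 22 called by DESeq2 and 2 by limma-trend. The 4 members were Gclm at 0.49 ± 0.17, Hmox1 at 0.40 ± 0.17, Txnrd1 at 0.28 ± 0.13 and Nqo1 at -0.59 ± 0.24 (log2, edgeR adjusted p from 0.591 to 0.699).

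Levels of the same 4 genes differed between the sexes in the controls, a comparison added after the values were seen. The control values also enter the difference of the UV responses, so the match of these genes is not an independent result. Txnrd1 ranged from 207 to 317 cpm in 8 control females (median 239) and 299 to 500 cpm in 8 control males (median 344), so 1 female, 60F, lay above 2 of the males. Hmox1 ranged from 59.6 to 104 cpm in control females (median 86.3) and 98.2 to 162 cpm in control males (median 127). Gclm ranged from 5.93 to 10.8 cpm in females and 8.79 to 15.7 cpm in males. Nqo1 ranged from 1.60 to 3.91 cpm in females and 0.747 to 3.06 cpm in males. The first 3 were thus lower and Nqo1 higher in control females, with overlapping ranges.

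Female against male, averaged over the genotypes, the controls differed by -0.52 ± 0.09 for Txnrd1, -0.61 ± 0.12 for Hmox1, -0.43 ± 0.12 for Gclm and 0.57 ± 0.17 for Nqo1 (log2, edgeR adjusted p = 0.00220, 0.00476, 0.0340 and 0.0418). These are 4 of 10 members, 1 higher and 3 lower, where 6.86% of all genes passed (2.22% higher, 4.64% lower), or 1066 genes, and 464 to 1753 with 1 mouse left out. The sexes did not overlap for 0 members and for 0.618% of all genes. The Gclm and Nqo1 calls were each lost under 12 of the alternatives (Gclm -0.36 to -0.44, Nqo1 0.49 to 0.60), and those of Txnrd1 and Hmox1 under none.

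After UV only Keap1 passed between the sexes, 0.26 ± 0.07 higher in females (adjusted p = 0.0354), where 3.03% of all genes passed (471 genes, and 117 to 1043 with 1 mouse left out). UV females ranged from 23.7 to 40.8 cpm and UV males from 21.7 to 29.9 cpm. The call was lost under 12 alternatives (0.19 to 0.25), among them the fit without female 66F. Txnrd1 and Hmox1 were -0.24 ± 0.09 and -0.21 ± 0.12 after UV (adjusted p = 0.141 and 0.338). All 3 endothelial markers tested were called higher in control females than in control males, at summed levels of 0.709 to 10.2 against 0.360 to 1.42 cpm. The 4 skeletal muscle markers summed to 3.17 to 2370 cpm in control females and 4.83 to 411 cpm in control males, and 0 of 4 were called. After UV 3 of 6 keratinocyte markers were called lower in females (sums of 24700 to 41900 against 32300 to 52400 cpm), and 2 of 10 macrophage and monocyte markers (116 to 1560 against 116 to 239 cpm) and 1 of 5 Langerhans cell markers (330 to 682 against 323 to 428 cpm) were called higher. Their part in the sex differences was not tested.

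**Figure D3:**
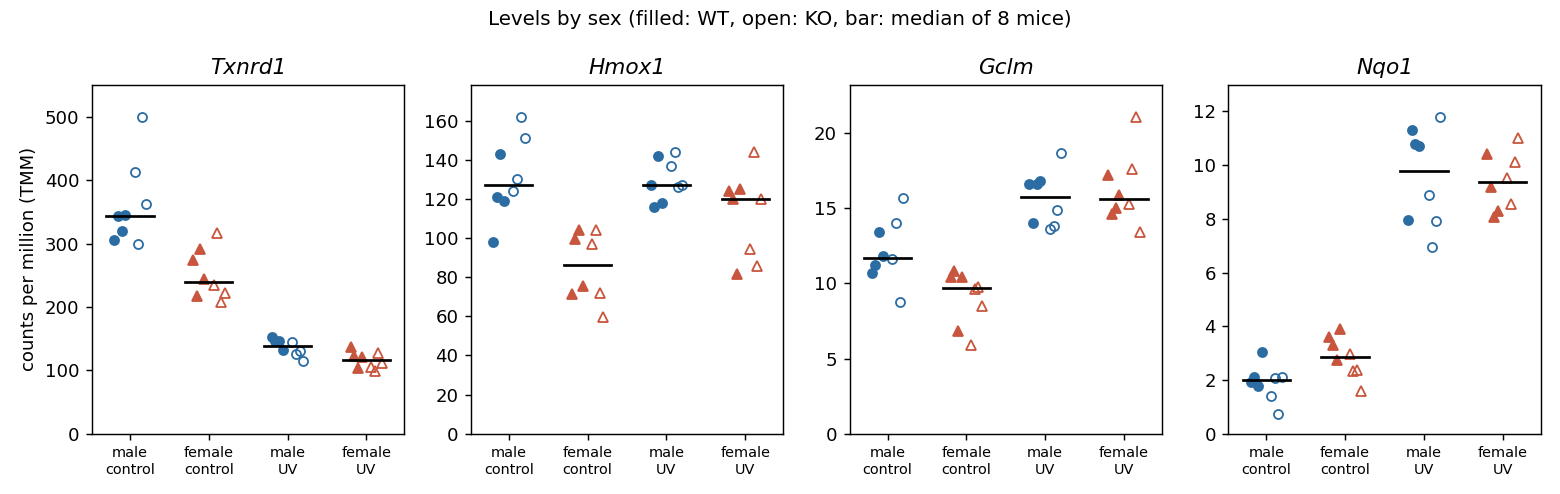
Cpm (y axis, linear from 0) of the 4 members called between control females and males, by treatment and sex (x axis), in WT (filled) and KO (open) mice, with a bar at the median of 8 mice. Control females lie lower for Txnrd1, Hmox1 and Gclm and higher for Nqo1 in median.

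Levels of different genes can be compared only per length, here as cpm per kb of all annotated exons of a gene, merged. This length need not be that of the transcript made. It was longest for Slc7a11 among the members, at 13922 bases, so the rank of that gene is uncertain. In WT controls Hmox1 had the highest median at 58.2, followed by Txnrd1 at 42.0, Nfe2l2 at 21.1, Srxn1 at 17.2, Keap1 at 10.4 and Gclc at 6.88 cpm per kb. Nqo1 at 1.87, Gclm at 1.71, Slc7a11 at 0.713 and Gsta4 at 0.687 cpm per kb were lowest. The ranges of neighbours overlapped for Hmox1 and Txnrd1, for Nqo1 and Gclm, for Gclm and Slc7a11 and for Slc7a11 and Gsta4, and Nfe2l2 lay below Txnrd1 without overlap. After UV in WT mice Hmox1 stayed highest in median at 69.5, and Srxn1 at 44.5 and Nfe2l2 at 40.0 stood above Txnrd1 at 18.9 cpm per kb without overlap, while Hmox1 and Srxn1 overlapped, as did Srxn1 and Nfe2l2.

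The members differed in how far mice of 1 group spread. Over the 8 groups of 4 mice, the median coefficient of variation was 5.32% for Gclc and 7.76% for Keap1, between 11.2% and 19.4% for Txnrd1, Srxn1, Nfe2l2, Hmox1, Gclm and Nqo1, 27.7% for Slc7a11 and 55.8% for Gsta4.

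Beyond the members, 56 genes of the pathway were followed, of which 54 passed the filter on low counts. In WT 23 rose and 22 fell, where 34.5% of all genes rose and 36.5% fell, and in KO 26 rose and 22 fell, where 37.3% and 33.5% did. In both genotypes 21 rose, 20 fell and 1 moved in opposite directions. The shares of all genes called in both genotypes are not given here, so these counts are only a description. The median log2 fold change was 0.01 in WT and 0.17 in KO, beside -0.01 and 0.09 over all genes.

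Of the 9 genes Cul3, Rbx1, Sqstm1, Maff, Mafg, Mafk, Bach1, Bach2 and Nfe2l1, 5 rose and 3 fell in WT, and 5 rose and 4 fell in KO. They were listed for the NRF2 ligase and for bZIP factors, and not all of these factors are partners of NRF2. The small MAF genes Mafk, 2.83 ± 0.18 in WT and 2.74 ± 0.18 in KO (log2), and Maff, 2.00 ± 0.13 and 1.93 ± 0.13, rose, as did Sqstm1, which encodes p62, an adaptor that takes KEAP1 to autophagy, at 1.8 ± 0.09 and 1.68 ± 0.09. Mafk went from 39.2 to 51.7 cpm in WT controls to 196 to 508 cpm after UV. Small MAF proteins also pair with factors other than NRF2, and without it they form dimers that repress.

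Glutathione genes other than the members rose for 4 and fell for 1 of 8 in WT, and rose for 6 and fell for 1 in KO. Gpx2, a glutathione peroxidase, rose by 2.00 ± 0.33 and 1.95 ± 0.33 (log2), from 0.159 to 0.952 cpm in WT controls to 1.24 to 5.78 cpm. Every WT control thus lay under 1 cpm, so the size of this rise is measured from a very low level. Of the 6 thioredoxin and peroxiredoxin genes 3 rose and 3 fell in each genotype. Prdx3, the mitochondrial peroxiredoxin, rose by 2.01 ± 0.08 and 1.96 ± 0.08, from 13.1 to 18.5 cpm in WT controls to 59.1 to 70.9 cpm.

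Conjugation and carbonyl reduction held the widest spread, with 5 of 15 genes higher and 7 lower in WT, and 5 higher and 8 lower in KO. Akr1b8, an aldo-keto reductase, rose by 3.58 ± 0.22 in WT and 3.72 ± 0.22 in KO (log2), from 5.30 to 13.8 cpm in WT controls to 78.6 to 146 cpm after UV. Ephx1, the microsomal epoxide hydrolase, rose by 1.89 ± 0.11 and 1.95 ± 0.11. In contrast, the glutathione transferases Gsta2 and Gstm2 fell, by -3.37 ± 0.22 and -2.58 ± 0.31 in WT and -3.10 ± 0.22 and -1.66 ± 0.30 in KO, as did the glucuronosyltransferase Ugt1a6a, by -3.09 ± 0.28 and -3.22 ± 0.28. The aldehyde dehydrogenase Aldh3a1 fell by -2.09 ± 0.30 and -1.76 ± 0.29. Gsta2 shares most of its sequence with Gsta1, and reads that fit both were not counted, so its level is uncertain. Gsta4, the member of the same family, thus rose while these transferases fell.

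Of the NADPH suppliers 1 of 6 rose and 4 fell in WT, and 1 rose and 3 fell in KO. Of the 6 heme and iron genes 3 rose and 2 fell in WT, and 4 rose and 2 fell in KO. Of the 4 other antioxidant genes 2 rose and 2 fell in WT, and 2 rose and 1 fell in KO. Osgin1, a growth inhibitor induced by oxidative stress, rose by 2.39 ± 0.21 and 2.47 ± 0.21 (log2).

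Sod1, the cytosolic superoxide dismutase, was the only pathway gene with a called difference of the UV responses between the genotypes. It ranged from 10.1 to 29.1 cpm in WT controls (median 16.2) and 10.0 to 14.3 cpm after UV (median 10.9). In KO mice it ranged from 8.68 to 19.2 cpm in controls (median 11.8) and 11.3 to 25.5 cpm after UV (median 19.3). It fell by -0.52 ± 0.15 in WT and rose by 0.61 ± 0.15 in KO, a difference of 1.13 ± 0.22 (log2, edgeR adjusted p = 0.0121), and after UV it was 0.71 ± 0.15 higher in KO (adjusted p = 0.0142). The latter call was lost in males alone, in females alone and without KO UV male 58M (0.61 to 0.71, adjusted p = 0.0525 to 0.704). The groups overlapped, and the difference was not called in males or in females alone (1.25 and 0.92, adjusted p = 0.380 and 0.180). Sod1 has near-identical processed copies in the genome, and reads that fit several places were not counted, so its level is uncertain. Gpx3, a secreted glutathione peroxidase, was called higher in KO after UV at 3.03 ± 0.84 (adjusted p = 0.0446), but its highest value, 219 cpm, was in the library that stood apart, 54F, and without it the difference was 0.81 (adjusted p = 0.481).

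**Figure D4:**
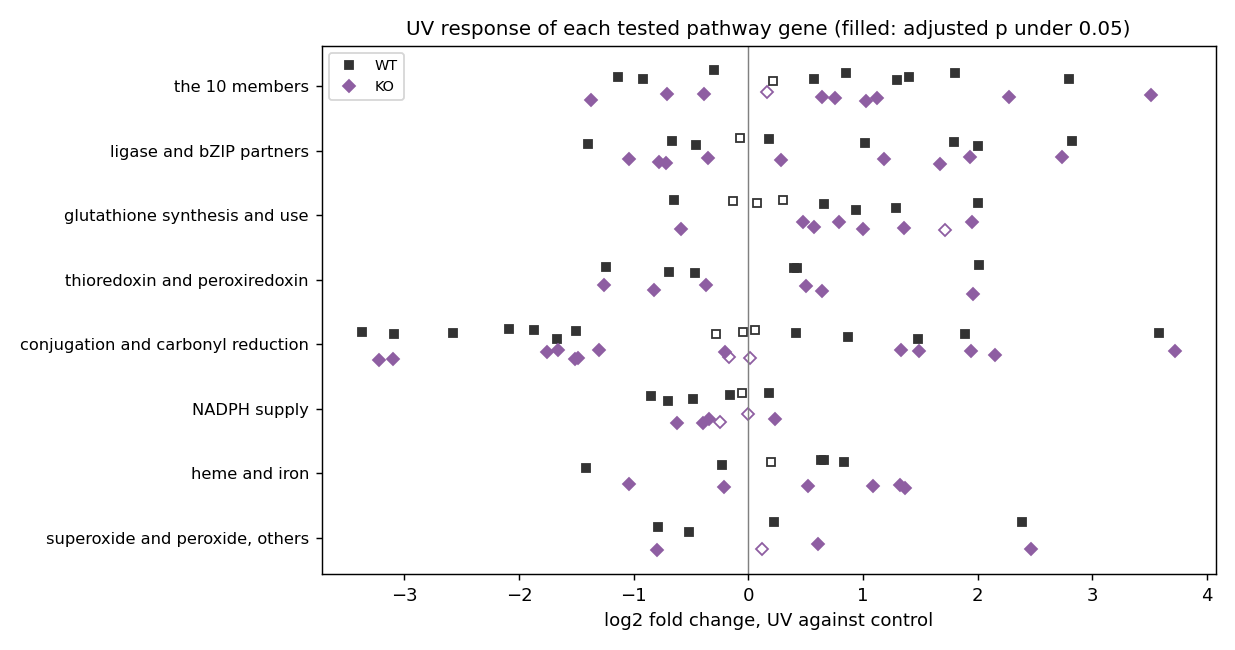
Log2 fold change for UV against control (x axis) of the 10 members and of each tested pathway gene, by role (y axis), in WT (squares) and KO (diamonds), filled where the adjusted p is under 0.05. Points lie on both sides of 0 in each row, the members being drawn as 1 row, and they run from -3.37 for Gsta2 to 3.72 for Akr1b8.

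Markers of the cells in the peel moved with UV as well. The summed cpm of 6 keratinocyte markers ran from 70100 to 78500 in WT controls and 28800 to 43000 after UV. In KO the sums ran from 65600 to 106000 and from 24700 to 52400. Krt14 of the basal layer was the 1 marker called higher, in both genotypes. The other 5, Krt5 of the same layer among them, were called lower in WT, and 4 were called lower in KO. Macrophage and monocyte markers summed to 46.1 to 108 cpm in WT controls and 116 to 202 cpm after UV (6 of 10 higher, 1 lower), and to 35.1 to 120 and 116 to 1560 cpm in KO (8 higher). Langerhans cell markers fell from 576 to 915 cpm to 323 to 389 cpm in WT (5 of 5 lower) and from 553 to 884 cpm to 337 to 682 cpm in KO (4 lower). T cell markers fell from 14.7 to 94.8 cpm to 11.2 to 39.4 cpm in WT and from 37.2 to 85.2 cpm to 17.7 to 41.0 cpm in KO (5 of 5 lower in each). Neutrophil markers rose for 2 of 4 in WT, and 3 rose and 1 fell in KO, with sums of 19.3 to 42.3 and 24.5 to 46.2 cpm in WT controls and UV mice and 24.5 to 62.4 and 24.2 to 48.9 cpm in KO, and Ly6g and Ngp did not pass the filter on low counts. Dermal fibroblast markers summed to 12.6 to 71.9 and 1.73 to 8.44 cpm in WT controls and UV mice (3 of 6 lower), and to 2.23 to 92.2 and 6.0 to 1980 cpm in KO (0 called). Endothelial markers summed to 0.413 to 2.54 and 1.49 to 6.86 cpm in WT (3 of 3 higher) and 0.36 to 10.2 and 1.62 to 20.8 cpm in KO (2 higher). No red blood cell marker (3 tested) or skeletal muscle marker (4 tested) was called, and 1 of 4 melanocyte markers and the 1 adipocyte marker tested were called higher in each genotype. That adipocyte marker, Cidec, was near the floor, at 0 to 0.191 cpm in WT controls and 0.0727 to 0.982 cpm after UV. In KO it was read at 0 to 1.22 and 0.664 to 4.29 cpm. Adipoq and Plin1 did not pass the filter on low counts. The part of these shifts in the members' changes was not tested.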

How the data were processed

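Epidermal RNA of 32 mice was sequenced as stranded mRNA libraries, and the deposited values are raw read counts per Ensembl gene, made by the authors with cutadapt 1.8, STAR 2.5.3a and HTSeq 0.9.1. The labels name GRCm38, and symbols and positions came from GENCODE M21, which matched 55141 of 55401 identifiers. The 15546 genes that reached 1 cpm in any library were fitted with edgeR 4.0.16 (TMM, quasi-likelihood, Benjamini-Hochberg), with 1 mean for each of 8 groups and contrasts averaged over the sexes with equal weight. Each SE was derived from the test, as the absolute log2 fold change divided by the square root of the quasi-likelihood F value. Alternatives were RLE factors, DESeq2 1.42.0, limma-trend (limma 3.58.1), no filter, filterByExpr, each genotype alone, each sex alone and each mouse left out. The members and gene lists were chosen with earlier results of these data known. Named pathway genes were the 12 with the largest log2 change called in both genotypes, and any called between genotypes or for sex by UV. Each gene was counted without reads that align to several places, which lowers genes with near-identical copies. Reads that fell on several genes were set aside as ambiguous, which lowers genes that share exons with others.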

Additional observations from a re-analysis of the deposited data

Results flagged for a closer look

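Among 80 combinations of member and group, 4 held a mouse set apart from the other 3 of its group by Dixon's test, where chance flags about 1 in 20. Keap1 was read at 40.8 cpm in KO UV female 66F, the highest of her group. Gclm was read at 6.85 cpm in WT control female 71F and at 14.0 cpm in WT UV male 38M, each the lowest of its group. Hmox1 was read at 81.7 cpm in WT UV female 59F, also the lowest.

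Among the other pathway genes, the UV response of Sod1 differed between the genotypes by 1.13 (log2, KO minus WT, edgeR adjusted p = 0.0121). This difference was not called in males or in females alone (edgeR adjusted p = 0.380 and 0.180). The groups overlapped, and the level of Sod1 is uncertain because reads that fit several places were not counted.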

How the results depend on the processing

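The count of members called for UV stayed at 9 in KO and at 9 or 10 in WT in the 32 fits that left out 1 mouse, and the count called alike in every sex and genotype ran from 7 to 9. DESeq2 called 1 member (Srxn1) for the genotype by UV difference in place of 0. The count called between control females and males was 2 without a filter on low counts in place of 4, and ran from 2 to 4 with 1 mouse left out. After UV it was 0 in place of 1 without a filter and with filterByExpr, and ran from 0 to 1 with 1 mouse left out. Differences that were not called changed sign: Gclm for genotype by UV was -0.16 in males alone and ran from -0.0403 to 0.13 with 1 mouse left out, Slc7a11 for the same difference was 0.23 in females alone, Hmox1 for UV in KO was -0.0658 in males alone, and Hmox1 for UV in WT males ran from -0.0189 to 0.162 with 1 mouse left out. Over all genes, calls for genotype by UV numbered 119, against 841 by DESeq2, 55 without a filter, 6 in males and 12 in females alone, and calls between control females and males 1066, against 1676, 327 and, with filterByExpr, 653. Calls of KO against WT numbered 32 without UV, against 78 by DESeq2, 5 in males and 2 in females alone, and 514 after UV, against 1116 by DESeq2, 260 by limma-trend, 263 without a filter, 7 in males and 1383 in females alone. Calls of female against male after UV numbered 471, against 1196 by DESeq2 and 239 without a filter. Leaving out 1 mouse moved these counts by over 1.5 times: genotype by UV ran from 56 (without 69M) to 346 (without 59M), KO against WT from 20 (without 69F) to 45 without UV and from 133 (without 51F) to 983 (without 59M) after it, and female against male from 464 (without 61F) to 1753 (without 43M) without UV and from 117 (without 59F) to 1043 (without 74F) after it. The causes were not tested. No paired analysis was possible because every mouse is in 1 group only, no pair of the 8 groups shares more than 1 of the numbers in the names of the mice, and no label ties a shared number to a litter, batch or day. Depth limits Gsta4 and Nqo1 most, which rested on 7 to 54 and 17 to 113 reads in controls.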
